A study of Homo sapiens with 8 samples.

Results

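Fibroblast growth factor (FGF) ligands and the feedback genes of the ERK kinase pathway were followed at the RNA level in G401 cells, an established rhabdoid kidney tumor line without SMARCB1, upon re-expression of this mSWI/SNF subunit. The set held 10 genes of 69215 listed, namely the ligands FGF20, FGF1, FGF2, FGF9 and FGF18 and the feedback genes SPRY2, SPRY4, DUSP4, DUSP6 and SPRED2. FGF20 was selected on its measured RNA counts, which were lower with SMARCB1 in these libraries, so its values in the SMARCB1 line are a description without a test, and the question was whether the other 9 genes followed it. The other 9 genes and the pathway lists were also chosen with earlier results of these data known, so their p-values carry that limit. Each of the 4 groups had 2 libraries. All cells carried a Tet-On construct, for SMARCB1 in 1 line and for GFP in the control line, and were given 0.1 µg/ml doxycycline (Dox) or DMSO for 12 h. The groups were therefore SMARCB1 DMSO, SMARCB1 Dox, GFP DMSO and GFP Dox. Per the study's methods, plates were pooled for each condition and the experiments were done in duplicate. Whether the 2 libraries of a group came from separate cultures is not stated further, so the p-values measure only the spread between these libraries, which may be technical. No number of clones is given for either line in the sources used here.

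FGF ligands bind FGF receptors at the cell surface, with heparan sulfate as a cofactor, and the activated receptors signal through RAS, RAF and MEK to the kinase ERK. ERK activity in turn raises the RNA of genes that dampen the pathway. Sprouty (SPRY) and SPRED proteins act at or upstream of RAF, whereas DUSP4 and DUSP6 are phosphatases that remove phosphate from MAP kinases, with DUSP6 being selective for ERK in the cytoplasm. FGF2 and FGF9 can drive proliferation of mesenchymal and kidney progenitor cells, and FGF9 and FGF20 are closely related ligands known for maintaining nephron progenitors in the developing kidney.

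Counts assigned to genes ranged from 29632090 to 37597477 per library. Mitochondrial genes took 18.9% to 27.9% of them, most in SMARCB1 DMSO replicate 1. SMARCB1 itself had 10 and 21 counts before induction, 30474 and 29383 after it and 0 in the 4 GFP libraries, which fits the labels of the lines and of the SMARCB1 groups but does not separate GFP Dox from GFP DMSO. A count of 0 allows up to 3 counts, or 0.0798 to 0.101 CPM, for counting error only. CPM are counts scaled to a common library size, in this floor without the TMM scaling used for the levels below. Of the marker lists, the 4 kidney tubule genes summed to at most 1 count per library and the 4 endothelial genes to at most 20. VIM, a mesenchymal marker, had 22088 to 45130 counts and FN1 at most 5. An expression filter left 7 of the 10 genes among the 15931 tested, while FGF1, FGF9 and DUSP4 fell below it.

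FGF20, a secreted ligand of the FGF9 subfamily (chromosome 8, positions 16992181 to 17002345, GRCh38, minus strand), was lower in both libraries with SMARCB1 than in any other library. The SMARCB1 DMSO libraries held 352 and 374 FGF20 counts, and the SMARCB1 Dox libraries 146 and 153. In the control line, DMSO left 341 and 379 counts and Dox 330 and 324. Scaled to CPM with TMM factors, FGF20 stood at 11.7 ± 0.518 without SMARCB1 and 4.24 ± 0.195 with it (SD, n = 2), a ratio of 0.362 in the fitted model. It was the gene at position 112 from the lowest log2 fold change among the 15931 tested. Dox alone left it without a detectable change in the GFP line, at 9.99 ± 0.158 and 9.79 ± 1.32 CPM (SD, n = 2). There the log2 fold change was -0.03 with a 95% interval from -0.32 to 0.25 (edgeR, adjusted p of 1). As in any bulk sample, fewer cells with FGF20 RNA and less of it per cell cannot be told apart.

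**Figure D1:**
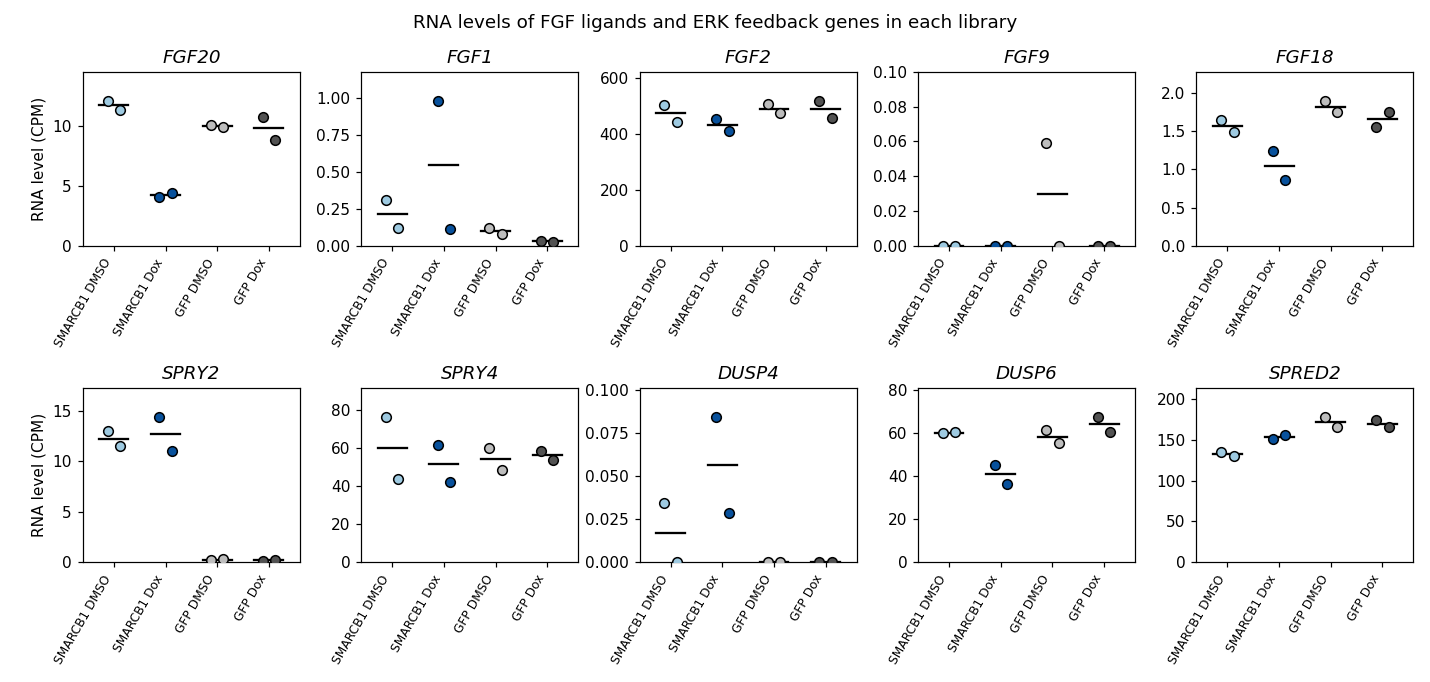
RNA levels in CPM (linear axes from 0, a different range in each panel) of the 10 genes in the 8 libraries. Points are libraries and horizontal lines the means of 2 libraries. FGF20, DUSP6 and FGF18 are lowest in both SMARCB1 Dox libraries. The means of FGF2 and SPRY4 are also lowest there, with overlapping libraries. SPRY2 is near 0 in the 4 GFP libraries.

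FGF2, basic FGF, was by far the most abundant ligand RNA and did not follow FGF20 detectably. FGF2 (chromosome 4, positions 122826682 to 122898236, plus strand) reached 14697 and 14647 counts in the DMSO libraries of the SMARCB1 line, and 16211 and 14400 with Dox. The CPM values were 504 and 444 against 455 and 412, so that the groups overlapped. Its log2 fold change of -0.13 (95% interval -0.32 to 0.06) did not pass the test (edgeR, adjusted p of 0.41). The 0.362-fold level of FGF20 lies outside this interval, but FGF20 was selected for its lower counts, so this comparison is a description and no test. NUDT6, which is transcribed from the opposite strand across FGF2, had 111 and 114 counts before and 158 and 162 after SMARCB1 induction. The strand setting of the counting is not given in the sources used here, so that reads of overlapping genes on opposite strands cannot be told apart. The part of such reads in the FGF2 counts was not tested.

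FGF18, a ligand related to FGF8 and FGF17, lay low in all groups. FGF18 (chromosome 5, positions 171419647 to 171457626, plus strand) gave 48 and 49 counts in SMARCB1 DMSO against 44 and 30 upon SMARCB1 Dox. The GFP line gave 64 and 67 counts under DMSO, then 48 and 64 under Dox. In CPM, both SMARCB1 Dox libraries (1.24 and 0.858) were below both SMARCB1 DMSO libraries (1.65 and 1.49), which by itself holds for 25.2% of all genes tested. The log2 fold change of -0.58 had a 95% interval from -1.20 to 0.05 and did not pass the test (edgeR, adjusted p of 0.234). The interval holds both 0 and the decline seen for DUSP6.

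FGF1 and FGF9 had few or no reads. FGF1, acidic FGF (chromosome 5, positions 142592178 to 142698070), had 9 and 4 counts without SMARCB1, against 35 and 4 with it. The 35 counts came from a single library, and its partner was level with the DMSO libraries. In the GFP line FGF1 had 4 and 3 counts with DMSO and 1 in each library with Dox. FGF9 (chromosome 13, positions 21671073 to 21704498) had 2 counts in GFP DMSO replicate 1 and 0 in the other 7 libraries. FGF9 could thus not be compared with its relative FGF20. In the libraries at 0, the floor of 3 counts was 0.0798 to 0.101 CPM before TMM scaling.

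Levels were compared between ligands per exon length. The 22 genes of the FGF family, listed here as ligand genes whether or not their proteins are secreted, were compared as RPKM. This is CPM divided by the exon length in kilobases. In SMARCB1 DMSO, FGF2 stood at 69.7 ± 6.23 RPKM, FGF20 at 6.36 ± 0.281, FGF5 at 1.81 ± 0.191 and FGF18 at 0.784 ± 0.0568 (SD, n = 2). This order FGF2, FGF20, FGF5, FGF18 held in each of the 8 libraries, without overlap between neighbours in any group. In SMARCB1 Dox, FGF20 was at 2.30 ± 0.106 RPKM and FGF5 at 1.16 ± 0.0018 RPKM. As a share of all ligand RPKM, FGF20 made up 7.84% and 8.31% in SMARCB1 DMSO and 6.4% to 6.87% throughout the GFP line, against 3.12% and 3.67% with SMARCB1. FGF2 made up 88.1% to 89.8% in the 6 libraries without SMARCB1 and 93.9% and 93.3% in those with it. Since these are shares of 1 sum, a lower FGF20 share raises that of FGF2 by construction.

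**Figure D2:**
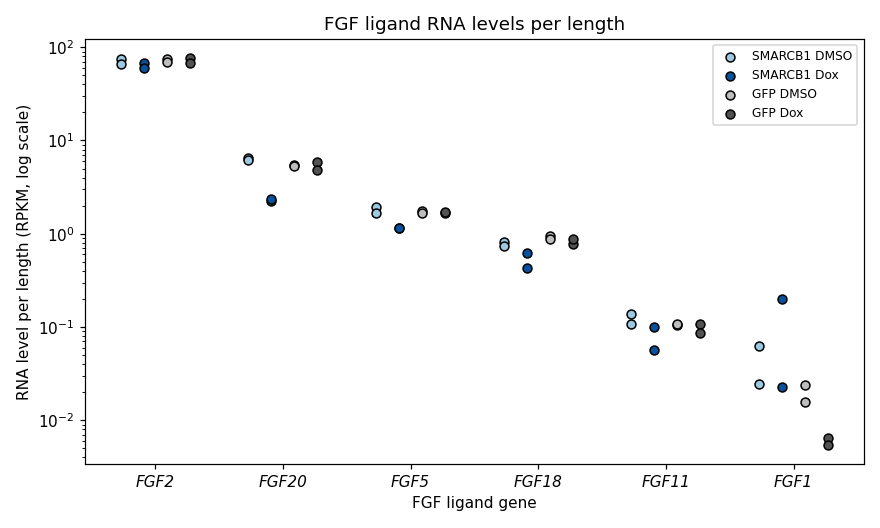
RNA levels of 6 FGF family genes in RPKM on a log scale, with 1 point per library and a color per group. FGF2 is highest, between 60.6 and 76.3, and FGF20 next. FGF1 scatters at the floor, with SMARCB1 Dox replicate 1 at 0.197.

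Of the other 17 FGF family genes, 3 passed the expression filter. Of these, 1 was called lower with SMARCB1 and none higher, where 14% of all genes tested were called. This was FGF5, a ligand known as a regulator of the hair cycle. FGF5 had 337 and 328 counts before and 247 and 242 after induction of SMARCB1, with 309 to 383 in the GFP line. It fell by 0.63 on the log2 scale (SE 0.135, edgeR adjusted p of 0.00266). The difference from the Dox effect in the GFP line was -0.62 for FGF5 and did not pass (adjusted p of 0.0665). FGF8 and FGF11 were not called.

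Among FGF receptors and their binding partners, 2 were called lower and 2 higher of 7 tested (12 listed), where 14% of all genes tested were called. FGFR2, a receptor tyrosine kinase whose splice forms differ in ligand choice, went from 728 and 641 CPM to 450 and 517 CPM, below all other libraries. This was a fall by 0.50 on the log2 scale (SE 0.0898, edgeR adjusted p of 0.000503). FGFR3 was expressed far less and rose from 5.70 ± 1.11 to 10.9 ± 0.902 CPM (SD, n = 2), by 0.94 on the log2 scale. FGFR1 stood at 493 ± 48.4 and 520 ± 36.4 CPM, with overlapping libraries (log2 fold change 0.08, adjusted p of 0.632). Per length, FGFR2 held 39.5% and 40.4% of the RPKM of the 5 receptor genes in SMARCB1 DMSO and 26.7% and 30.6% in SMARCB1 Dox, whereas FGFR1 held 31.3% and 31.6%, then 35.4% and 31.9%. FGFRL1, a receptor-like protein without a kinase domain, was also called higher, at 0.37, a call lost in 3 of the 16 alternatives, 1 of them without SMARCB1 DMSO replicate 2 (adjusted p of 0.138). FGFBP3, a secreted protein that carries FGFs, fell from 22.6 ± 0.393 to 9.89 ± 1.35 CPM (SD, n = 2), or by 1.19 on the log2 scale (SE 0.118, edgeR adjusted p of 4.89e-07).

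Of the 9 genes other than FGF20, 6 were tested, and 1, DUSP6, was called lower upon SMARCB1 re-expression, while none was called higher. Over all genes tested, 14% were called, 8.33% higher and 5.69% lower, so that 1 of 6 is near the background, and the statement concerns DUSP6 alone. DUSP6 (chromosome 12, positions 89347235 to 89352501, minus strand) measured 59.9 and 60.6 CPM in SMARCB1 DMSO but 45.3 and 36.3 CPM once SMARCB1 was induced. The GFP line had 61.3 and 55.3 CPM with DMSO and 67.5 and 60.8 CPM with Dox. Both libraries with SMARCB1 were thus the lowest of the 8. The fitted level was 0.677-fold, or -0.56 in log2 (SE 0.0995, edgeR adjusted p of 0.000453). In all 16 alternatives it lay between -0.73 and -0.41 and remained called. The fitted level of FGF20 was 0.362-fold in the same libraries. FGF20 was selected for its lower counts there, so the sizes of the declines were not compared by a test.

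The 250 bases before the DUSP6 start are given because, of the 4 tested feedback genes of the set, DUSP6 alone was called with SMARCB1. They lie at chr12:89352502-89352751 (GRCh38.p14, RefSeq) and are printed 5′ to 3′ on the minus strand. They are in lower case since none of the motifs searched on both strands was found, namely AP-1 (TGANTCA), CRE (TGACGTCA) and the ETS motif CCGGAA. The shorter GGAA was not searched for.
DUSP6: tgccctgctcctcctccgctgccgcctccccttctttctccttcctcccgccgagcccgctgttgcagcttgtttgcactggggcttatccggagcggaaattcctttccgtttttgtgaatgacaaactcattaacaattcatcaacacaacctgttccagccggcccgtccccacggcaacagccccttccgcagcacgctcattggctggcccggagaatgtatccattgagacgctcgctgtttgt
The stretch overlaps an exon of the long noncoding RNA ENSG00000274021 on the plus strand. ENSG00000274021 had 42 and 43 counts before SMARCB1 induction and 20 and 35 after it, with 44 to 56 in the GFP line. DUSP6 itself had 1267 to 2224 counts, and the part of reads from the overlap in them was not tested.

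SPRY4 varied between replicates more than with SMARCB1. SPRY4 (chromosome 5, positions 142310427 to 142326455, minus strand), a Sprouty inhibitor of receptor signalling, measured 76.4 and 43.7 CPM in SMARCB1 DMSO, then 61.4 and 42.1 CPM with Dox. In the GFP line it measured 60.1 and 48.3 CPM, then 58.5 and 54.0 CPM. Replicate 1 exceeded replicate 2 in every group, by 1.75-fold in SMARCB1 DMSO, a ratio matched or passed by 5.67% of the genes tested. SPRY4 had a log2 fold change of -0.21 (95% interval -0.58 to 0.16, edgeR adjusted p of 0.508). Without SMARCB1 DMSO replicate 2, the log2 fold change of SPRY4 was -0.56, and over all 16 alternatives it ran from -0.56 to 0.24. Its direction thus depended on the alternative, and whether it was called rested on 1 library.

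SPRY2, a second Sprouty protein, did not differ detectably with SMARCB1. SPRY2 (chromosome 13, positions 80335976 to 80341126, minus strand) had 380 counts in each of the SMARCB1 DMSO libraries, while those with Dox had 513 and 387. In CPM this was 12.3 ± 1.07 and 12.7 ± 2.36 (SD, n = 2). Between these means lay a log2 fold change of 0.05 (95% interval -0.29 to 0.40, edgeR adjusted p of 0.889).

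SPRED2, a membrane-bound inhibitor of RAS signalling to RAF, was not called but had higher values with SMARCB1. SPRED2 (chromosome 2, positions 65310851 to 65432637, minus strand) measured 135 and 130 CPM before and 151 and 156 CPM after induction of SMARCB1, without overlap, as 25.9% of all genes tested showed in this direction. With a log2 fold change of 0.21 (SE 0.0785) it did not pass (edgeR, adjusted p of 0.0787). It did pass under 3 alternatives, with adjusted p of 0.0161 on library totals, 0.022 with a replicate block and 0.012 with the block and a GC correction. DUSP4, the nuclear relative of DUSP6 (chromosome 8), had 1 and 0 counts before and 3 and 1 after SMARCB1 induction and 0 in the GFP libraries, at or under the floor of 3 counts in all of them. Per length, the feedback genes of SMARCB1 DMSO ran in the order SPRED2 at 24.0 ± 0.661 RPKM, DUSP6 at 15.6 ± 0.122, SPRY4 at 9.16 ± 3.53 and SPRY2 at 3.82 ± 0.333 (SD, n = 2), again without overlap between neighbours.

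**Figure D3:**
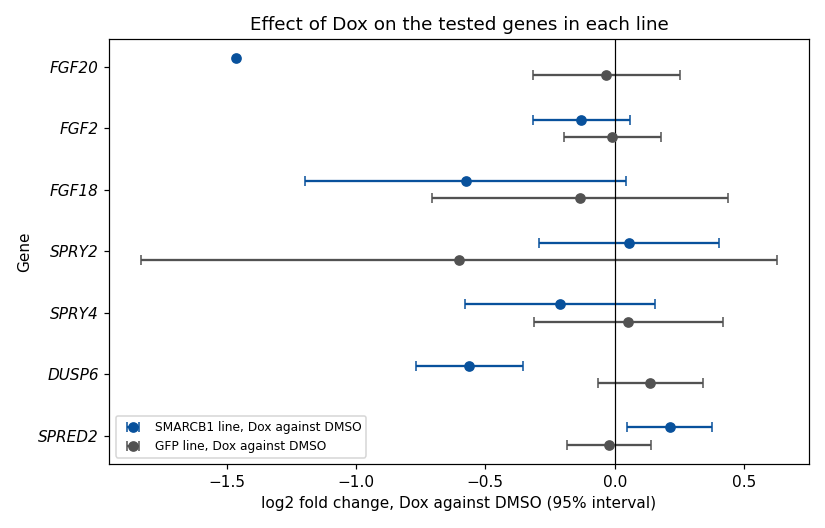
Log2 fold changes of Dox against DMSO for the 7 tested genes, colored by line. Bars are 95% intervals of the edgeR fit, left out for FGF20 in the SMARCB1 line because it was selected for this contrast. For DUSP6 the SMARCB1 line is at -0.56 and the GFP line at 0.14.

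Dox without SMARCB1 was assessed in the GFP line. edgeR called 0% of the genes there at an adjusted p under 0.05, so that none of the 7 genes was called. DESeq2 called 0 genes as well, and 266 genes (1.67%) had an unadjusted p under 0.05 in edgeR. DUSP6 had a log2 fold change of 0.14 (95% interval -0.07 to 0.34). For SPRY2, at 2 to 12 counts in this line, the interval was wide, from -1.83 to 0.63.

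The difference of the Dox effects between the lines was then tested. Both contrasts enter it, so it repeats their libraries. DUSP6 was the gene called among the 6 tested besides FGF20, with a difference of -0.70 (SE 0.14, edgeR adjusted p of 0.0042). Over all genes, 4.71% were called, 1.64% as lower. SPRED2 had a difference of 0.23 (adjusted p of 0.302), SPRY4 of -0.26 (0.688), FGF18 of -0.44 (0.674) and FGF2 of -0.12 (0.732). For SPRY2 the difference was 0.66 with a 95% interval from -0.62 to 1.93.

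The lines were also compared before induction, as SMARCB1 DMSO against GFP DMSO. SPRY2 and SPRED2 were the 2 genes called. SPRY2 was higher in the SMARCB1 line, with 380 counts in each SMARCB1 DMSO library against 6 and 12 in those of GFP DMSO. GFP Dox had 2 and 9. It was at 12.3 ± 1.07 and 0.245 ± 0.0954 CPM (SD, n = 2), 5.60 apart on the log2 scale (SE 0.279, edgeR adjusted p of 3.41e-13). SPRED2 was lower in the SMARCB1 line, at 132 ± 3.64 against 172 ± 8.22 CPM, or -0.38 in log2 (SE 0.0785, adjusted p of 0.00069). FGF2, FGF18, SPRY4 and DUSP6 were not called, with log2 fold changes of -0.05, -0.22, 0.15 and 0.05. The value of SPRY4 ran over the 16 alternatives from -0.31 to 0.49, the latter without SMARCB1 DMSO replicate 2, where it was called higher. FGF20 stood at 11.7 ± 0.518 and 9.99 ± 0.158 CPM. The lines differed at many genes, 32% of those tested, so that 2 of 6 is the background share. Of the 3 mesenchymal markers tested, 1 was called higher and 1 lower in the SMARCB1 line. COL1A1 was lower, at 612 and 551 counts in SMARCB1 DMSO against 16283 and 21929 in GFP DMSO. VIM went the other way, at 1280 ± 41.7 CPM in SMARCB1 DMSO against 707 ± 41.1 in GFP DMSO (SD, n = 2). COL1A2 was at 357 ± 8.79 and 310 ± 32.5 CPM. The part of these genes in the results was not tested. SMARCB1 had 10 and 21 counts in the uninduced SMARCB1 line and 0 in the GFP line. The line, its history and these counts of SMARCB1 cannot be told apart.

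The 250 bases before the outermost SPRY2 start are shown because SPRY2 differed most between the lines. They lie at chr13:80341127-80341376 (GRCh38.p14, RefSeq), printed 5′ to 3′ on the minus strand. An ETS motif (CCGGAA) is in capitals, the only match among the 3 motifs.
SPRY2: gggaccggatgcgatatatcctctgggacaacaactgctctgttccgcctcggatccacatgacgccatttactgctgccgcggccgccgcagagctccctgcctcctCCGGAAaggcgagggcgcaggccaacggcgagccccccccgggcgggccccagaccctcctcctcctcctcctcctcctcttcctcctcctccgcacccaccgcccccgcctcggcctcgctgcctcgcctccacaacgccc
Of 35116 windows of this length before RefSeq starts, 14.5% hold CCGGAA, 6.57% an AP-1 and 1.65% a CRE motif. ETS factors are known targets of ERK, but a match of 6 letters is a description and shows no binding.

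The other genes of the pathway were taken from lists of receptors, inhibitors, cascade members and ERK-responsive genes. These lists were chosen with earlier results of these data known, so the counts of called genes are a description. Of 101 listed, 77 were tested, and 20 were called higher and 8 lower with SMARCB1, with a median log2 fold change of 0.115. Over all genes tested, 14% were called, 1327 higher and 907 lower, with a median of -0.0038, so that higher calls outnumbered lower ones there too. Without SMARCB1 DMSO replicate 2, the number was 17, 10 of them higher and 7 lower. On library totals, which place the median of all genes at 0.088 in place of -0.0038, they were 27 higher and 6 lower, with 1986 and 497 over all genes. In the GFP line none was called.

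Of 17 other inhibitors tested (19 listed), 4 were called higher and 3 lower, beside 8.33% and 5.69% of all genes. Higher genes included DUSP7, an ERK phosphatase in the same subfamily as DUSP6, which rose from 60.4 ± 1.14 to 85.3 ± 8.88 CPM (SD, n = 2), by 0.50 on the log2 scale (SE 0.0844, edgeR adjusted p of 0.000294). DUSP7 thus moved in the opposite direction to DUSP6. RASAL2, a RAS GTPase-activating protein, rose by 0.71 and DUSP8, a phosphatase of stress-activated kinases, by 0.65. The call of DUSP8 was lost in 6 of the 16 alternatives, DESeq2 among them (adjusted p of 0.0529). DUSP8 was not called in the difference of the Dox effects. ERRFI1, an inhibitor of EGF receptors, fell from 449 ± 18.9 to 312 ± 3.83 CPM, by 0.52 on the log2 scale. IL17RD, a further inhibitor on the list, fell from 307 ± 22.5 to 229 ± 20.5 CPM (SD, n = 2). This was 0.42 on the log2 scale (SE 0.0844, edgeR adjusted p of 0.00146). The call of IL17RD was not followed over the alternatives, and IL17RD was not called in the difference of the Dox effects. SPRY1, a further Sprouty gene, had a log2 fold change of -0.26 (adjusted p of 0.0275), which was lost in 5 of the 16 alternatives.

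Of 19 ERK-responsive genes tested (22 listed), 7 were called higher and 2 lower, with a median of 0.26, where 8.33% and 5.69% of all genes were called. EGR1, an immediate early transcription factor, rose from 8.46 ± 3.08 to 14.3 ± 0.577 CPM (SD, n = 2), by 0.77 on the log2 scale (SE 0.178, edgeR adjusted p of 0.00509). Its libraries read 10.6 and 6.28, then 14.7 and 13.9 CPM, and its call was lost without SMARCB1 DMSO replicate 2 (adjusted p of 0.103). FOSL2, a component of AP-1, rose by 0.76, IER3 by 0.83 and SPHK1, a sphingosine kinase, by 1.05. SPHK1 was at 1.67 ± 0.0823 and 3.46 ± 0.156 CPM in the SMARCB1 line but at 19.8 ± 0.259 in GFP DMSO. PLAUR, the urokinase receptor, rose by 0.63 and was not called without SMARCB1 Dox replicate 1 (adjusted p of 0.192) or SMARCB1 DMSO replicate 2 (0.0934). In the GFP line, mean EGR1 went from 8.22 to 9.85 CPM and mean PLAUR from 10.9 to 12.8 CPM with Dox. Neither EGR1 nor PLAUR was called in the difference of the Dox effects. The lower genes were MYC, a transcription factor that promotes growth, and LIF, a cytokine. MYC had 148 and 137 CPM in SMARCB1 DMSO against 110 and 96.7 with SMARCB1, and fell by 0.46 on the log2 scale (SE 0.0842, edgeR adjusted p of 0.000631). LIF fell by 0.29 (adjusted p of 0.0347), a call lost in 6 of the 16 alternatives.

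A list of 10 genes used as a readout of MAPK activity (PHLDA1, SPRY2, SPRY4, DUSP4, DUSP6, CCND1, EPHA2, EPHA4, ETV4 and ETV5), 4 of them feedback genes described above, had 8 tested, of which DUSP6 was called lower and none higher. Over all genes tested, 14% were called, so that 1 of 8 is near the background. The list had a median log2 fold change of 0.04, beside -0.0038 over all genes. ETV4 and ETV5, transcription factors that usually follow FGF signalling, had log2 fold changes of -0.05 and 0.23 (edgeR, adjusted p of 0.804 and 0.117). ETV5 was called higher in 4 of the 16 alternatives, with adjusted p of 0.0189 on library totals, 0.0405 with the replicate block, 0.0279 with the block and the GC correction and 0.0298 without SMARCB1 Dox replicate 2.

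Of the 31 cascade genes, all tested, 7 were called higher and none lower, beside 8.33% higher and 5.69% lower over all genes. In the difference from the GFP line, 1 of the 31, KSR1, was called, beside 4.71% over all genes. KSR1, a scaffold of RAF, MEK and ERK, rose most, from 7.35 ± 1.36 to 30.2 ± 0.329 CPM (SD, n = 2). Counts of KSR1 went from 186 and 274 to 1065 and 1062, with 184 to 351 in the GFP line. The rise was 2.03 on the log2 scale (SE 0.163, edgeR adjusted p of 2.93e-08). GAB2, an adaptor, rose by 0.62 and was not called without SMARCB1 Dox replicate 1 (adjusted p of 0.0625).

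**Figure D4:**
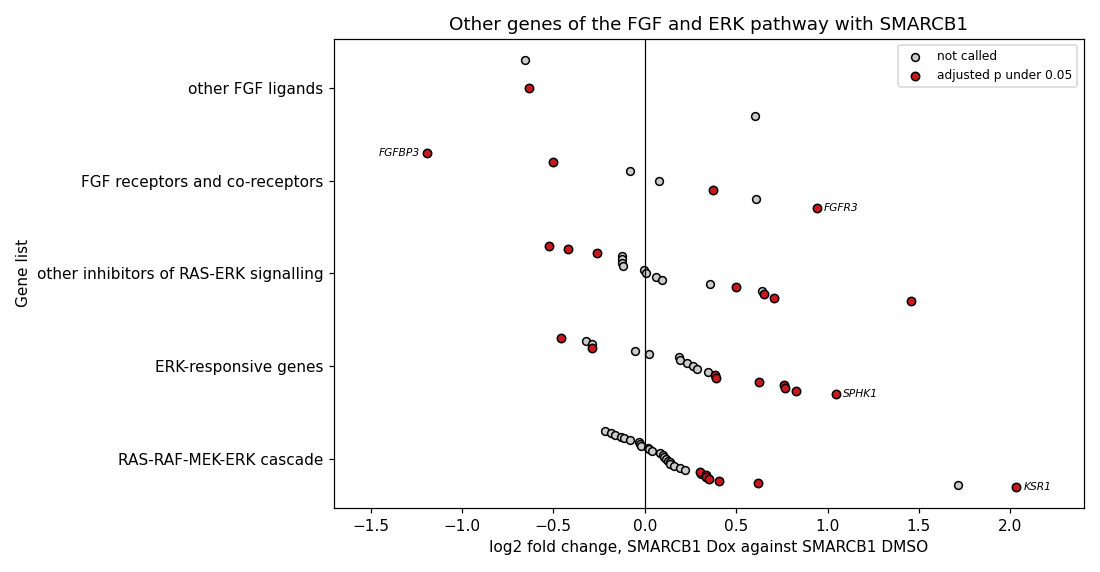
Log2 fold changes of SMARCB1 Dox against SMARCB1 DMSO for the tested genes of 5 pathway lists, each point a gene and red where the adjusted p was under 0.05. The cascade list has 7 red points, all to the right of 0, with KSR1 at 2.03. Labels name 4 of the genes described in the text.

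Between the lines before induction, 11 of the 77 genes were called higher and 23 lower in the SMARCB1 line, or 8 and 31 on library totals. Over all genes tested, 32% were called, 2600 higher and 2505 lower, or 1732 and 3658 on library totals. Higher were SPRY1 by 1.18 on the log2 scale, PHLDA1 by 1.37, DUSP8 by 1.84, DUSP5 by 0.63 and DUSP16 by 0.62. Lower were SPHK1 at -3.56, FOS at -2.22, ETV5 at -1.73, GAB1 at -1.56 and IER3 at -1.33. Thus SPRY1 and SPRY2 were both higher in the SMARCB1 line, whereas ERK-responsive genes divided into 2 higher and 9 lower of 19.

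The genes whose group means were most like those of FGF20 were sought among 12565 tested genes averaging 1 CPM or more, by the root mean square difference of centred log2 CPM over the 4 groups. The 5 nearest were ENSG00000287301, ENSG00000237655, DHFR2, GCNT4 and ETFBKMT, at differences of 0.0947 to 0.132. GCNT4, a glycosyltransferase, was at 610.4 ± 54.7 CPM in SMARCB1 DMSO and 284 ± 3.20 with SMARCB1, and the GFP line had 566 ± 48.6 (DMSO) and 563 ± 39.8 (Dox) (SD, n = 2). DHFR2, a dihydrofolate reductase, was at 4.91 ± 0.086, 1.43 ± 0.162, 4.25 ± 0.106 and 4.12 ± 0.547 CPM in the same order. None of the FGF ligands or feedback genes was among them. With 5 places for 12565 genes, this absence cannot show whether those genes followed FGF20.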

How the data were processed

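Total RNA of G401 cells was sequenced in 8 libraries. The sample labels name a ribosome profiling kit and the study's methods a directional RNA kit, so the library chemistry is uncertain. The deposited values were raw counts, obtained by the authors through STAR alignment and HTSeq counting (exons, intersection-strict mode, GENCODE v42, with hg38 named in the submitters' processing notes). Versions and strand option are not given in the sources used here. The 5 entries naming no gene held 27% to 29.3% of a library and were left out. Symbols and exon lengths came from GENCODE v44, which matched 62625 of 69215 identifiers, and upstream sequences from RefSeq.

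Counts were tested with edgeR (4.0.16, R 4.3.3) after its expression filter and TMM scaling, in 1 quasi-likelihood fit of the 8 libraries, with Benjamini-Hochberg adjustment over 15931 genes and a threshold of 0.05. DESeq2 (1.42.0), other scalings and filters, a GC correction, a replicate block and leaving out each library were alternatives. Replicates differed beyond sampling noise, so none was counted once. Intervals and floors (3 counts) cover counting error only where they rest on counts of 1 library, since reads are not independent molecules.

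The members and lists were chosen with earlier results of these data known. Besides the members, the named genes were up to 15 pathway genes with the largest change among those called with SMARCB1 and 5 per direction between the lines, at a mean of at least 1 CPM and without overlap of libraries. FGF8, FGF11, FGFR1, FGFRL1, IL17RD, MYC, LIF, COL1A1, COL1A2, VIM, FN1, PTPRC, HBB, ETV4 and the opposite-strand genes were named outside this rule, after their values were seen.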

Additional observations from a re-analysis of the deposited data

Results flagged for a closer look

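The Dox effect of 13 genes, DUSP6 and 12 of the 77 other pathway genes tested, differed between the SMARCB1 line and the GFP line by the edgeR test of the difference itself, which called 750 of all genes tested (4.71%). Among the ligands and feedback genes tested besides FGF20 this was DUSP6, with a difference (SMARCB1 line minus GFP line, log2) of -0.70. It held in all 16 alternatives, between -0.87 and -0.55, with the highest adjusted p at 0.0425. The difference was 2.17 for KSR1, 1.10 for SPHK1, 1.08 for FGFR3, 0.88 for IER3, 0.83 for FOSL2, 0.77 for RASAL2, 0.51 for DUSP7 and 0.47 for FGFRL1. It was -1.24 for FGFBP3, -0.55 for ERRFI1, -0.54 for MYC and -0.47 for FGFR2. The call of FGFR2 was lost in 7 of the 16 alternatives, that of FGFRL1 in 9, that of DUSP7 in 4 and that of MYC in 2.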

How the results depend on the processing

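With 2 libraries per group, small changes of weakly expressed genes are out of reach. FGF1, FGF9 and DUSP4 could not be tested, and FGF18 was limited by 30 to 67 counts. No value changed sign across its threshold. For the Dox effect of SMARCB1, the number of called genes among the 6 tested was 2 in place of 1 on library totals, with the replicate block, and with the block and the GC correction, each time by SPRED2. When single libraries were left out it was 1 to 2, the 2 coming without SMARCB1 DMSO replicate 2 by SPRY4, and that of the other pathway genes was 17 to 27 in place of 28, lowest without that same library. Between the lines, leaving out single libraries gave 2 to 3 genes. The replicate block gave 19 in place of 12 pathway genes for the difference of Dox effects. Over all genes, the block moved that difference from 750 to 1282 calls, and to 1221 with the GC correction. Single libraries moved it to between 390 and 805, and moved the SMARCB1 effect from 2234 to between 1284 and 2088. Without the expression filter the GFP line had 1 call in place of 0. Library totals gave 1986 higher and 497 lower genes in place of 1327 and 907 for SMARCB1, 670 and 159 in place of 489 and 261 for the difference, and 1732 and 3658 in place of 2600 and 2505 between the lines, where they moved the median of all genes from 0.015 to -0.10. The replicate numbers are shared by the labels only. Deviations of same-numbered libraries correlated at 0.148 (SMARCB1 line) and 0.0903 (GFP line), and at 0.0309 to 0.0618 between the lines. The main fit took no pairs. With the replicate block, the SMARCB1 effect had 3149 calls over all genes in place of 2234. The cause of these shifts was not tested.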

Other observations

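HBB, the beta globin gene, had 84 to 121 counts in each of the 8 libraries, while PTPRC, the pan-leukocyte marker, had at most 2. Its part in any result was not tested.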
